A study of Homo sapiens with 4 samples.

Results

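The DNA replication and G1/S genes examined here were 54 genes named in a list of replication and cell-cycle-entry factors, and all 54 were found among the 17718 genes that the arrays measured with a symbol. They encode the loaders and activators of the replicative helicase, the DNA polymerases and primase, the sliding clamp and its loader, enzymes of deoxynucleotide supply, E2F transcription factors, and the G1 and S phase cyclins and kinases. A gene was a member if the RefSeq accession of a probe belonged to a listed symbol.

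RNA came from OVSAYO, an established human cell line of ovarian clear cell carcinoma (CCC), and each of 4 conditions was hybridised to 1 single-colour Agilent whole genome array, all on 1 slide. In 2 conditions the cells carried a non-targeting siRNA (NS-si, called control cells) or a pool of siRNAs for Sp1 (Sp1-si, called silenced cells), and in the other 2 each kind was further cultured with 0.5 mM CoCl2 for 4 h (NS-si → CoCl2, Sp1-si → CoCl2). CoCl2 is a hypoxia-mimicking agent that stabilises hypoxia-inducible factors (HIFs), and Sp1 is a transcription factor that binds GC-rich promoter elements. All 4 arrays shared the cell line and a lipid transfection 40 h before the medium was changed. Since the Sp1 siRNAs were pooled, the part of any 1 siRNA sequence cannot be told apart. The labels and the methods of the study differ on the supplier of the Sp1 siRNA and on the culture time, and which applies to these arrays was not settled here. The study asked which genes respond to CoCl2 in an Sp1-dependent manner.

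With 1 array per condition there was no replicate, so no test was run and every ratio compares a pair of arrays. The only error available was the spread between repeated spots of a probe on the same array, given as SD. It covers spotting and scanning, and nothing of the cells or of differences between probes of a gene. For 6 members it came from the probe's own spots, and for the others from 10-spot probes of like signal. That SD of a log2 ratio lay between 0.05 and 0.12 for 51 members and was larger for the dim probes of E2F8, CCND2 and CCNE2. Signals are the scanner's background-subtracted brightness, and a ratio is the difference of log2 signals after each array was set to its own 75th percentile, which was 1143 for NS-si, 1100 for Sp1-si, 977 for NS-si → CoCl2 and 1287 for Sp1-si → CoCl2. Signals are given before that scaling, and the signal of one gene's probe cannot be compared with that of another. "Higher" and "lower" below mean at least 1.5-fold, with the probe well above background on both arrays. Where a gene had several probes the brightest stood for it.

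The siRNA target was checked in each array. The SP1 probe gave a signal of 553 in control cells and 429 in control cells with CoCl2, against 39.2 and 38.7 in silenced cells, a log2 ratio of -3.77 without and -3.87 with CoCl2. VEGFA, a HIF target that encodes an angiogenic growth factor, had a CoCl2 log2 ratio of 2.34 in control cells and 2.86 in silenced cells. All 5 epithelial markers, the Muellerian lineage marker PAX8 and the clear cell marker NAPSA were well above background on all 4 arrays. Of the immune, endothelial, fibroblast and serous markers, PTPRC, PECAM1, CDH5, COL3A1 and WT1 were well above background on none, whereas CD3E, CD14, VWF, DCN and ESR1 were on all 4, at signals between 15.4 and 327.

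Replication begins when the origin recognition complex, CDC6 and CDT1 load the MCM2-7 helicase onto DNA in G1. At the start of S phase, cyclin-dependent kinases and the CDC7 kinase let CDC45 and the GINS complex join the helicase with the help of MCM10, and polymerase alpha with primase then lays down primers that the clamp and its loader pass to the other polymerases. Many of these genes are transcribed together through E2F factors, which cyclin D and cyclin E kinases release from the retinoblastoma protein. Their promoters often carry GC boxes, to which Sp1 binds, beside E2F elements.

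Sp1-silenced cells had lower signals for many replication genes, and the step of helicase activation and the supply of deoxynucleotides stood lowest. Without CoCl2, 21 of 53 measured members (39.6%) were lower in silenced than in control cells, where 13.6% of all genes were lower. Under CoCl2, 14 of 52 (26.9%) were lower, against 17.7% of all genes. Higher members numbered 0 of 53 without CoCl2 (13.5% of all genes) and 2 of 52 with it (16.6% of all genes). The median log2 ratio of the members was -0.31 without CoCl2 and -0.19 with it, whereas that of all genes was -0.01 and -0.02. The split under CoCl2 rested on the scaling, since without scaling 15 members were higher and 6 lower, while the median of all genes moved to 0.38.

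The pair of comparisons for Sp1 shares no array, so members that stood lower in both were counted. There were 12 of 52 (23.1%), against 9.75% of all genes, and they were CDC45, GINS4, MCM10, POLA2, PRIM2, POLE2, RRM1, RRM2, TK1, E2F1, CCND3 and CCNA2. Members higher in both numbered 0, against 10.3% of all genes. A ratio below 0 in both comparisons was found for 28 members, above 0 in both for 9, and of opposite sign for 15, that is, below 0 in both for 53.8% of the members against 40.1% of all genes. Without scaling 6 of the 12 were still lower in both (5.69% of all genes), and with normexp 10 were (7.47%). RFC4, a subunit of the clamp loader, lay just outside, with log2 ratios of -0.56 and -0.58. The proliferation markers moved in the same direction. MKI67, measured by a dim probe, had signals of 48.0 in control, 16.0 in silenced, 27.3 in CoCl2-treated control and 18.5 in CoCl2-treated silenced cells. Its Sp1 log2 ratios were -1.53 ± 0.39 and -0.96 ± 0.45 (spot SD). Fewer cells in S phase and less of each RNA per cell cannot be told apart in these bulk samples, and the part of proliferation in the results was not tested.

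**Figure D1:**
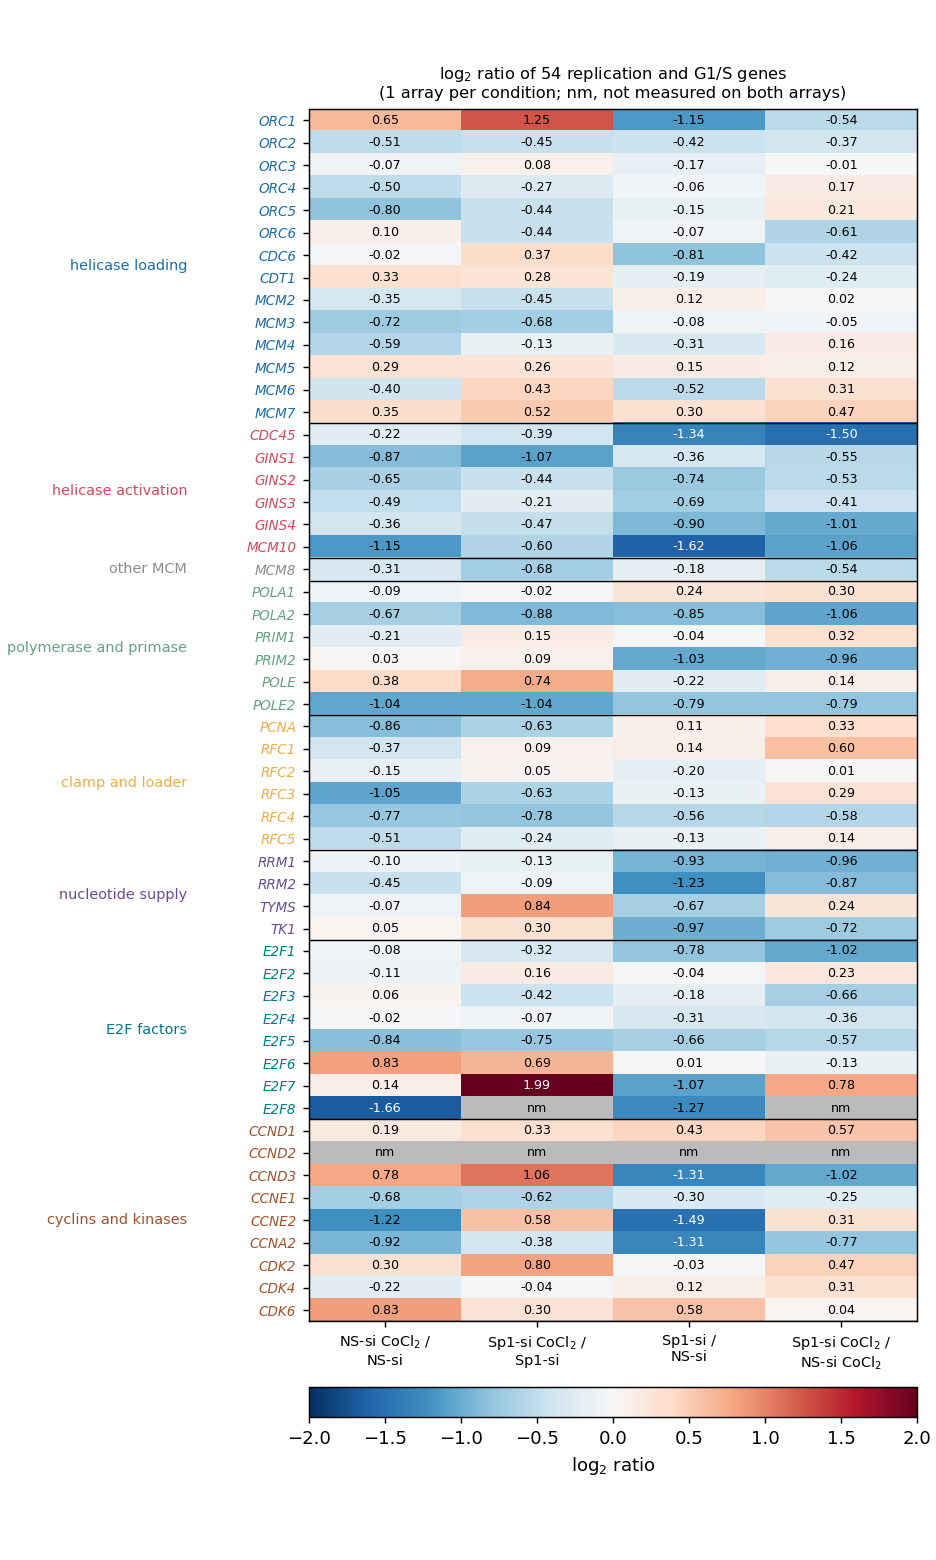
The log2 ratio of each of the 54 members in the 4 comparisons, by role in replication, with blue for lower and red for higher and nm where the probe was not well above background on both arrays. The rows of CDC45 and MCM10 are blue in all 4 columns, and those of CCND3 and ORC1 are red in both CoCl2 columns and blue in both Sp1 columns.

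All 6 genes of helicase activation (CDC45, GINS1, GINS2, GINS3, GINS4 and MCM10) had a ratio below 0 in each of the 4 comparisons by their brightest probe. Their median log2 ratio was -0.82 for Sp1 silencing without and -0.78 with CoCl2, and -0.57 and -0.46 for CoCl2 in control and silenced cells. The dimmer probes of GINS3 and GINS4 went the other way in 2 comparisons. They gave 0.41 and 0.45 for CoCl2 in silenced cells, and 0.19 and 1.07 for Sp1 under CoCl2. CDC45 is the helicase's activating subunit, and its signals were 2201 in control, 837 in silenced, 1613 in CoCl2-treated control and 749 in CoCl2-treated silenced cells. Both Sp1-silenced arrays lay below both control arrays, 2.53-fold lower without CoCl2 and 2.84-fold lower with it (log2 ratios of -1.34 ± 0.07 and -1.50 ± 0.07, spot SD). MCM10, which helps to assemble the active helicase, had signals of 179, 55.9, 68.7 and 43.3 in the same order of conditions. It was lower in all 4 comparisons: 3.08-fold with Sp1 silencing alone and 2.09-fold under CoCl2, and 2.23-fold and 1.51-fold with CoCl2 in control and silenced cells. The other MCM10 probe gave log2 ratios of -1.63 and -1.52 for Sp1 and of -1.07 and -0.96 for CoCl2, so both probes were lower in each comparison.

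The GINS subunits, which hold CDC45 onto the helicase ring, had ratios nearer 0 than CDC45 and MCM10 for Sp1 silencing alone. GINS1 gave signals of 73.7, 55.4, 34.5 and 30.9 in the same order. The 2 arrays with CoCl2 were the dimmer for GINS1, 1.83-fold lower in control and 2.10-fold in silenced cells. GINS2, with signals of 446, 257, 243 and 222, was highest in control cells alone, and its Sp1 log2 ratio was -0.74 without and -0.53 with CoCl2. GINS3 was lower only with Sp1 silencing alone by its brightest probe, at -0.69. Its dimmer probe gave -0.93 there and -0.72 for CoCl2 in control cells. GINS4 had signals of 118, 61.2, 78.7 and 51.6 and log2 ratios of -0.90 and -1.01 for Sp1, but its dimmer probe gave -0.36 and 1.07, so its place among the 12 rested on the choice of probe.

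Promoter sequences are shown for the 4 members lower in both Sp1 comparisons by the largest margin (by the smaller of their 2 ratios), because Sp1 is known to bind GC boxes. They are the 250 bases before each gene's start in RefSeq (GRCh38.p14), written 5′ to 3′ on the gene's own strand: CDC45 at chr22:19479670-19479919 (plus strand), MCM10 at chr10:13161308-13161557 (plus), CCND3 at chr6:42048689-42048938 (minus) and PRIM2 at chr6:57314555-57314804 (plus). Whether the transcript that each probe measures begins at that start was not checked. Capitals mark matches on either strand. The GC box was searched as GGGCGG. The CCAAT element was searched by these 5 letters. E2F-type elements were searched as TTTCCCGC, TTTGGCGC, TTTCGCGC or TTTGCCGC, and no capitals of different elements overlap in these windows.
CDC45: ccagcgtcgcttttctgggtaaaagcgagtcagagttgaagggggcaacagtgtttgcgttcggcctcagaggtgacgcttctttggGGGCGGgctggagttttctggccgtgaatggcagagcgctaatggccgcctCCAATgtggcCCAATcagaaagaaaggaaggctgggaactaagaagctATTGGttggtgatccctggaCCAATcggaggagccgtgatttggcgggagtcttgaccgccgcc
MCM10: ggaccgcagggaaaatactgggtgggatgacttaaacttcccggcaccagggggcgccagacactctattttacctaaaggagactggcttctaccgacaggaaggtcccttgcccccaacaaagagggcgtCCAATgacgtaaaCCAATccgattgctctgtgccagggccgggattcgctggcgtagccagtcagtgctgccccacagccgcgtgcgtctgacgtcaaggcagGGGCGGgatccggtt
CCND3: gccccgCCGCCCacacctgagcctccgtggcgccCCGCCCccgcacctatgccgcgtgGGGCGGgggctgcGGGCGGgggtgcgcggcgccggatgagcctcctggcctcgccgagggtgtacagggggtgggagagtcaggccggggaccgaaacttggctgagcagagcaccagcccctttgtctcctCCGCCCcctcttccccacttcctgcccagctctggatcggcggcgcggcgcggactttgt
PRIM2: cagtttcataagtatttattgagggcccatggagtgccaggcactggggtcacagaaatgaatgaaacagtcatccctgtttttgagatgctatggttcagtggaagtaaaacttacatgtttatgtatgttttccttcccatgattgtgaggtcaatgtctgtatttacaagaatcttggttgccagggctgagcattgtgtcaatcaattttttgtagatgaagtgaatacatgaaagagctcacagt
CDC45 held 1 GC box and 4 CCAAT elements, MCM10 held 1 and 2, CCND3 held 5 GC boxes and no CCAAT, and PRIM2 held none of the elements searched in this window.

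Among the 45 members with a promoter entry, 33 (73.3%) held a GC box, against 42.3% of all 27305 promoters. The members lower in both Sp1 comparisons did so in 8 of 11 cases (72.7%) and the other members in 25 of 34 (73.5%), nearly the same share. CCAAT elements were in 25 of 45 members (55.6%), against 33% of all promoters, with 6 of 11 and 19 of 34 in the 2 sets. E2F-type elements were in 15 of 45 members (33.3%), against 2.79% of all promoters, with 2 of 11 of the lower set and 13 of 34 of the others. These are matches of letters and not measured binding sites. MCM4, MCM5, GINS4, E2F5, E2F8, CCND1, CCND2, CCNE2 and CDK2 had no entry.

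Every gene of nucleotide supply, 4 of 4, was lower in silenced than in control cells without CoCl2, and 3 of 4 were lower under CoCl2, with medians of -0.95 and -0.79. RRM1, the large subunit of ribonucleotide reductase, gave signals of 4788 in control, 2423 in silenced, 3829 in CoCl2-treated control and 2589 in CoCl2-treated silenced cells, and its log2 ratio was -0.93 without and -0.96 with CoCl2. RRM2, the small subunit, whose level peaks in S phase, gave 1733, 712, 1085 and 782, with log2 ratios of -1.23 and -0.87. Its other probe gave -1.22 and -1.14. TK1, the cytosolic thymidine kinase, gave 19346, 9495, 17082 and 13687, and was 1.96-fold and 1.64-fold lower. For these 3 genes both Sp1-si arrays lay below both NS-si arrays, and the CoCl2 ratios were under 1.5-fold. TYMS, thymidylate synthase, differed from them: its signals were 3367, 2036, 2737 and 4266, so that the Sp1 log2 ratio was -0.67 without CoCl2 and 0.24 with it. TYMS was 1.79-fold higher with CoCl2 in silenced cells and at a log2 ratio of -0.07 in control cells.

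**Figure D2:**
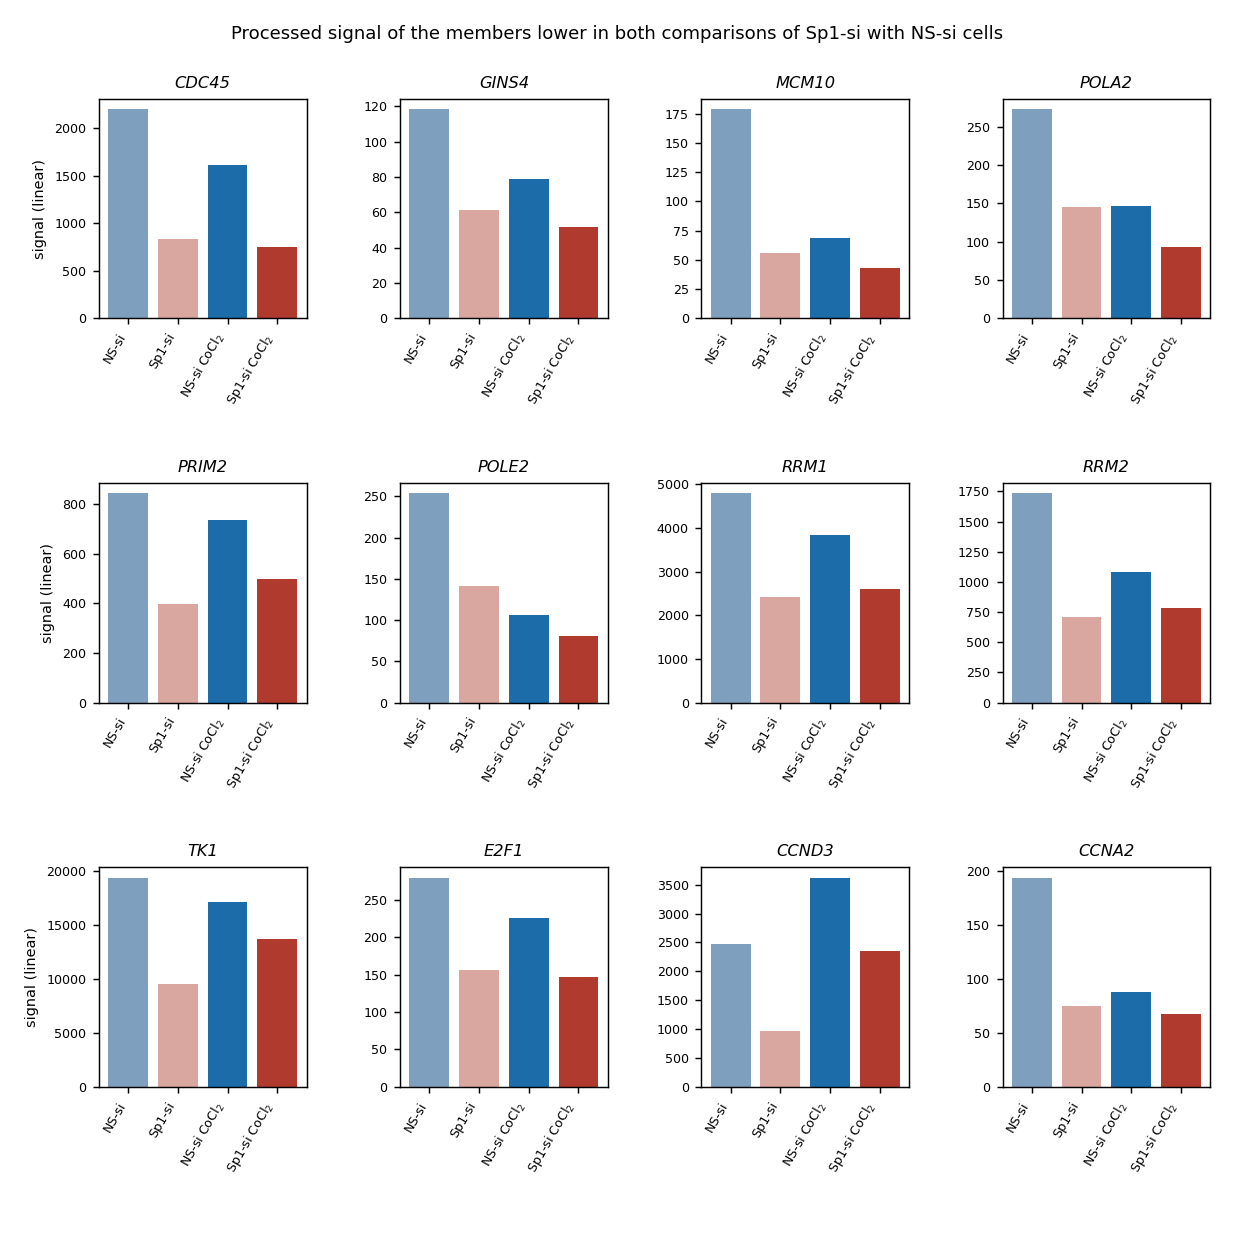
Processed signal (linear, before scaling between arrays) of the 12 members lower in both Sp1 comparisons, with 1 bar for each array and a separate axis for each gene. In CDC45, RRM1, RRM2, PRIM2 and TK1 both Sp1-si bars lie below both NS-si bars, while in CCND3 the Sp1-si → CoCl2 bar (2354) nearly reaches the NS-si bar (2473).

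Among the polymerases and primase, the accessory subunits and not the catalytic ones carried the lower signals. POLA2, the regulatory subunit of DNA polymerase alpha, gave 273 in control, 146 in silenced, 147 in CoCl2-treated control and 92.7 in CoCl2-treated silenced cells, lower in all 4 comparisons, with log2 ratios of -0.85 and -1.06 for Sp1 and -0.67 and -0.88 for CoCl2. Its catalytic partner POLA1 had log2 ratios between -0.09 and 0.30. POLE2, the B subunit of polymerase epsilon, gave 253, 141, 106 and 80.4, also lower in all 4, with -0.79 in both Sp1 and -1.04 in both CoCl2 comparisons. POLE, its catalytic partner, gave 126, 104, 140 and 203 and was 1.67-fold higher with CoCl2 in silenced cells. PRIM2, the large primase subunit, gave 842, 398, 734 and 496, 2.04-fold and 1.95-fold lower with Sp1 silencing. By this brightest probe PRIM2 was within 1.1-fold with CoCl2. The other PRIM2 probe gave Sp1 log2 ratios of -1.005 and -0.88 and CoCl2 log2 ratios of -0.41 in control and -0.29 in silenced cells. PRIM1, the catalytic primase subunit, gave Sp1 log2 ratios of -0.04 and 0.32. MCM10, POLA2 and POLE2 were the 3 members lower in all 4 comparisons, though each missed 1.5-fold in 1 comparison under some other processing. For MCM10 it was CoCl2 in silenced cells, at -0.49 with median scaling, -0.46 with quantile normalization or normexp and -0.37 without scaling. For POLA2 it was CoCl2 in control cells with normexp, at -0.46, and for POLE2 it was Sp1 under CoCl2 without scaling, at -0.40.

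The MCM2-7 ring itself stayed within 1.5-fold with Sp1 silencing. Its 6 genes had a median log2 ratio of 0.02 without and 0.14 with CoCl2, and 0 of 6 were higher or lower in either comparison. With CoCl2 the median was -0.38 in control cells and 0.07 in silenced cells. MCM3 gave 4551 in control, 4140 in silenced, 2371 in CoCl2-treated control and 3018 in CoCl2-treated silenced cells, lower with CoCl2 by 1.64-fold and 1.61-fold. MCM4 was lower with CoCl2 in control cells, at a log2 ratio of -0.59, and at -0.13 in silenced cells. MCM6 had CoCl2 log2 ratios of -0.40 and 0.43 and MCM7 of 0.35 and 0.52, so the ring's subunits did not move as a block. MCM8, a relative of the ring with a part in recombination, was lower with CoCl2 in silenced cells, at -0.68.

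The helicase loaders were mixed. ORC1, the subunit of the origin recognition complex whose level varies most over the cell cycle, gave 87.5 in control, 38.1 in silenced, 117 in CoCl2-treated control and 106 in CoCl2-treated silenced cells. It was higher with CoCl2 in both kinds of cell (1.57-fold and 2.38-fold) and 2.21-fold lower with Sp1 silencing alone. Each of these ORC1 ratios fell under 1.5-fold with normexp, another background correction. The one for CoCl2 in control cells also did so without scaling and in the authors' table. Under CoCl2 the Sp1 log2 ratio of ORC1 was -0.54, just short of 1.5-fold. ORC5 gave 2939, 2543, 1445 and 2197 and was lower with CoCl2 in control cells, at -0.80, and at -0.44 in silenced cells. CDC6, which brings the helicase to the origin, gave 788, 432, 667 and 654, and was 1.76-fold lower with Sp1 silencing alone. ORC2, ORC3, ORC4 and CDT1 stayed under 1.5-fold in all 4 comparisons by their brightest probe, and the other ORC4 probe gave -0.60 for CoCl2 in silenced cells. ORC6 was lower in the Sp1 comparison under CoCl2 by its brightest probe, at -0.61, whereas its other probe gave 0.71.

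With CoCl2, 3 of the 6 genes of the clamp and its loader (PCNA, RFC3 and RFC4) were lower in both kinds of cell. RFC3 was so by its brightest probe alone. In control cells 16 of 53 members (30.2%) were lower with CoCl2, against 9.88% of all genes, and 4 were higher (CCND3, CDK6, E2F6 and ORC1), against 10.6%. In silenced cells 11 of 52 (21.2%) were lower, against 11.1% of all genes, and 7 were higher (CCND3, CDK2, E2F6, E2F7, ORC1, POLE and TYMS), against 10.2%. The median log2 ratio of the members was -0.22 in control and -0.11 in silenced cells, and that of all genes was 0.00 in both. The proliferation markers were lower in control cells, with CoCl2 log2 ratios of -0.59 ± 0.43 in control and -0.01 ± 0.40 in silenced cells for the dim MKI67 probe and of -0.65 ± 0.07 and -0.35 ± 0.08 for TOP2A (spot SD), and their part in the members' ratios was not tested. Without scaling the split was 2 higher and 24 lower in control cells and 11 higher and 3 lower in silenced cells, and with the median in place of the 75th percentile it was 9 higher and 5 lower in silenced cells.

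Members lower in both CoCl2 comparisons, which share no array, numbered 10 of 52 (19.2%), against 5.25% of all genes. They were MCM3, GINS1, MCM10, POLA2, POLE2, PCNA, RFC3, RFC4, E2F5 and CCNE1. The count rested on the processing: 5 were lower in both with median scaling (4.35% of all genes; CCNE1, MCM10, MCM3, PCNA and RFC3 were no longer so in silenced cells), 3 without scaling (4.14%) and 5 with normexp (3.64%). Those higher in both were CCND3, E2F6 and ORC1, 3 of 52, against 5.75% of all genes. ORC1 was no longer so with normexp, without scaling or in the authors' table, and CCND3 was no longer so without scaling. PCNA, the sliding clamp, gave 5142 in control, 5332 in silenced, 2426 in CoCl2-treated control and 4027 in CoCl2-treated silenced cells. Both CoCl2 arrays lay below both arrays without it, with log2 ratios of -0.86 and -0.63, and the Sp1 ratios of PCNA were 0.11 and 0.33. RFC4 gave 1622, 1055, 816 and 718, lower with CoCl2 by 1.70-fold and 1.72-fold. RFC3 gave 574, 505, 237 and 382, with log2 ratios of -1.05 and -0.63, but its dimmer probe gave -0.45 and 0.36. Its place among the lower members thus rested on the choice of probe in both kinds of cell. For Sp1 silencing alone the RFC3 probes gave -0.13 (brightest) and -0.74. RFC2 and RFC5 stayed under 1.5-fold in all 4 comparisons, and RFC1 was higher in the Sp1 comparison under CoCl2 by its brightest probe (0.60) and lower by its other probe (-0.76).

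**Figure D3:**
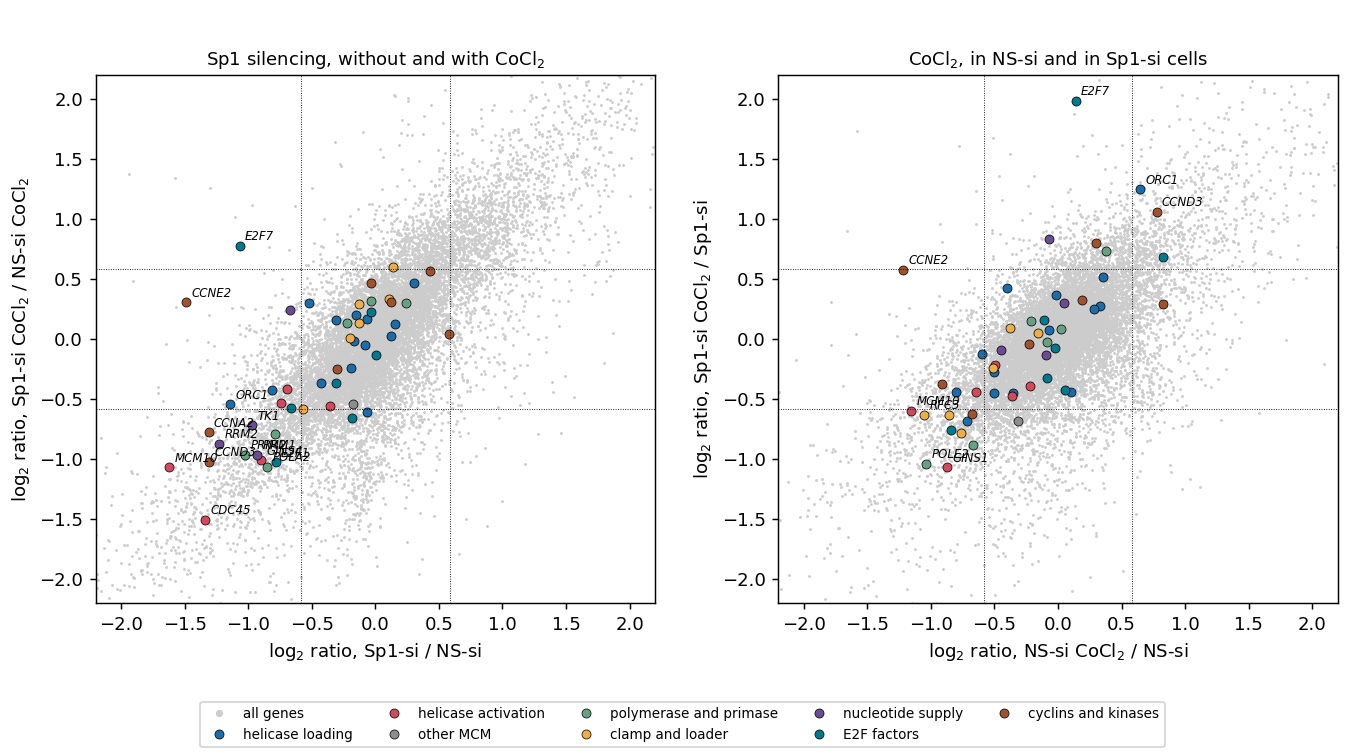
Log2 ratios of the members (coloured by role) over all genes (grey), with Sp1 silencing without against with CoCl2 on the left and CoCl2 in NS-si against Sp1-si cells on the right; dotted lines mark 1.5-fold. E2F7 and CCNE2 lie far from the diagonal in both panels, and the 12 members lower in both Sp1 comparisons fill the lower left corner of the left panel.

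E2F factors went different ways. E2F1, an activator of S phase genes, gave 280 in control, 156 in silenced, 226 in CoCl2-treated control and 146 in CoCl2-treated silenced cells, with Sp1 log2 ratios of -0.78 and -1.02. E2F6, a repressor that acts without the retinoblastoma protein, gave 4758, 4605, 7217 and 8681, higher with CoCl2 by 1.77-fold and 1.61-fold. All 4 E2F6 probes were higher with CoCl2, between 0.65 and 0.83 in control and between 0.69 and 0.88 in silenced cells on the log2 scale. E2F5, a factor of the repressor class, gave 1087, 663, 520 and 460 and was lower with CoCl2 by 1.79-fold and 1.69-fold. E2F3 was lower in the Sp1 comparison under CoCl2 alone, at -0.66, and E2F4 in none. E2F2 stayed under 1.5-fold by its brightest probe, whereas its dimmer probe gave -1.39 for CoCl2 in control and -0.62 in silenced cells, and -0.84 for Sp1 silencing alone.

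E2F7, an atypical repressor of the E2F programme, had signals of 413 in control, 190 in silenced, 389 in CoCl2-treated control and 881 in CoCl2-treated silenced cells. The Sp1-si array was the lowest and the Sp1-si → CoCl2 array the highest. Its CoCl2 log2 ratio was 0.14 ± 0.07 in control and 1.99 ± 0.08 in silenced cells (spot SD), and its Sp1 log2 ratio was -1.07 without and 0.78 with CoCl2. A single probe with 1 spot measured E2F7, so its spot SD came from other probes of like signal. Agreement between probes could not be checked for E2F7. E2F8, its closest relative, gave 28.1, 11.2, 7.60 and 3.24, the last not well above background. It was 3.16-fold lower with CoCl2 in control cells and 2.41-fold lower with Sp1 silencing alone (spot SD of 0.43 and 0.39 on the log2 scale), and at least 1.28-fold lower with CoCl2 in silenced cells. That bound sets the brighter array against the dimmest signal well above background on the other. With normexp, another background correction, both measured E2F8 ratios fell under 1.5-fold, to log2 values of -0.19 with CoCl2 in control cells and -0.28 for Sp1 silencing alone.

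Cyclins and their kinases were mixed. CCND3, cyclin D3, gave 2473 in control, 962 in silenced, 3621 in CoCl2-treated control and 2354 in CoCl2-treated silenced cells. It was higher with CoCl2 by 1.71-fold and 2.09-fold and lower with Sp1 silencing by 2.47-fold and 2.03-fold, and its other probe gave log2 ratios of 0.93 and 0.98 for CoCl2 and of -1.20 and -1.15 for Sp1. CCND1, cyclin D1, stayed under 1.5-fold by its brightest probe (log2 ratios from 0.19 to 0.57), while another probe gave -1.44 for CoCl2 in silenced cells, 0.69 for Sp1 silencing alone and -0.98 for Sp1 under CoCl2. CCND2 was well above background only in silenced cells with CoCl2, at a signal of 11.8, at least 1.499-fold above silenced cells without CoCl2 and 1.29-fold above control cells with it, and its other 2 probes were so on no array. CCNA2, the S phase cyclin A, gave 194, 75.04, 87.8 and 67.7 and was 2.48-fold and 1.71-fold lower with Sp1 silencing. Its CoCl2 log2 ratio was -0.92 in control and -0.38 in silenced cells.

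CCNE1, a cyclin that activates CDK2 at the entry to S phase, was lower with CoCl2 in both kinds of cell (-0.68 and -0.62). CCNE2, its relative, gave dim signals of 30.9, 10.6, 11.3 and 18.5. The CCNE2 log2 ratio with CoCl2 was -1.22 ± 0.43 in control and 0.58 ± 0.40 in silenced cells (spot SD). The first of these was the only ratio called lower or higher that was under 3 times its spot SD. For Sp1 silencing alone the CCNE2 log2 ratio was -1.49 ± 0.39. With normexp both ratios called lower fell under 1.5-fold, to -0.15 with CoCl2 in control cells and -0.36 for Sp1 silencing alone. CDK2 gave 94.2, 88.6, 99.4 and 181 and was 1.75-fold higher with CoCl2 in silenced cells. CDK6, a partner of cyclin D, gave 7860, 11277, 11938 and 16207 and was 1.78-fold higher with CoCl2 in control cells, with log2 ratios of 0.30 for CoCl2 in silenced cells and 0.58 for Sp1 silencing alone. CDK4 stayed under 1.5-fold in all 4 comparisons. In all, 37 of the 53 members measured in any comparison (69.8%) were higher or lower in at least 1 of the 4, against 52.9% of all genes.

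The CoCl2 response was also compared between the 2 kinds of cell, as the log2 ratio in silenced cells minus that in control cells, which equals the Sp1 ratio with CoCl2 minus that without. It was at least 1.5-fold higher for 5 of 52 members (CCNE2, E2F7, MCM6, ORC1 and TYMS), against 5.43% of all genes, and lower for 0, against 8.13%. The differences were 1.85 ± 0.11 for E2F7, 1.80 ± 0.60 for CCNE2, 0.91 ± 0.10 for TYMS, 0.83 ± 0.10 for MCM6 and 0.60 ± 0.16 for ORC1 (spot SD). The median difference of the members was 0.18 and that of all genes 0.01. Without arrays in replicate this difference was not tested.

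**Figure D4:**
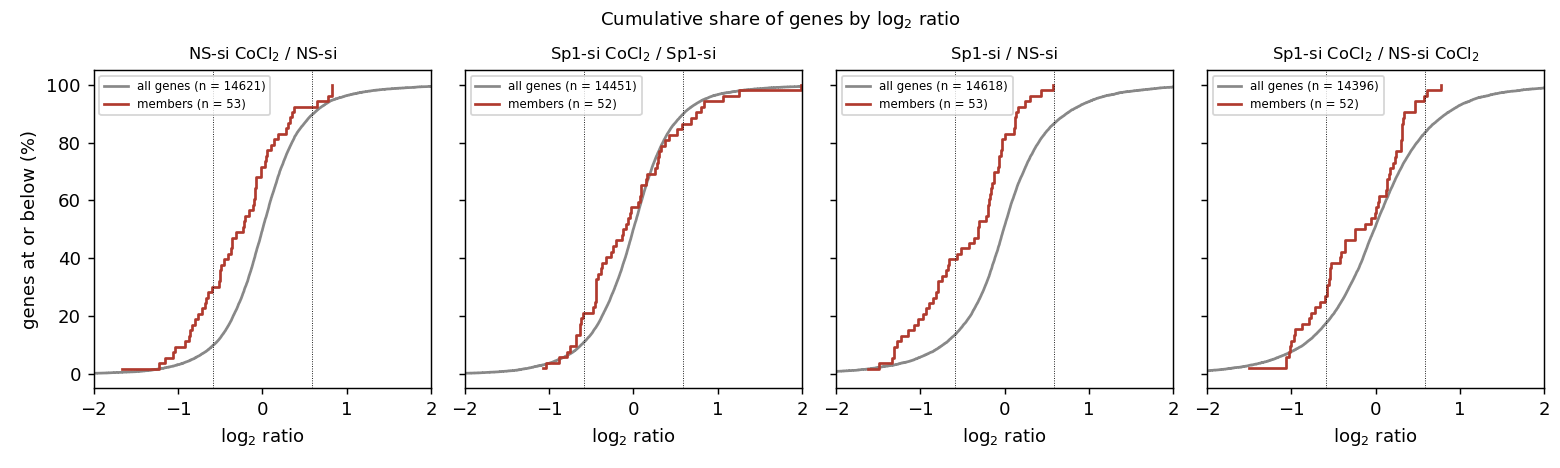
Cumulative share of genes (%) at or below each log2 ratio for the members (red) and all genes (grey) in the 4 comparisons, with dotted lines at 1.5-fold. The red line lies to the left of the grey line in Sp1-si/NS-si, where the medians are -0.31 and -0.01, and close to it in the right part of Sp1-si → CoCl2/Sp1-si.

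Probes of the same gene were set against each other where several were well above background. In 18 genes 84 ratios could be compared, and 17 ratios in 7 genes (ORC6, GINS3, GINS4, RFC1, RFC3, E2F2 and CCND1) differed by at least 1.5-fold from that of the brightest probe. Of these 17, 12 involved the Sp1-si → CoCl2 array, where each array takes part in 2 of the 4 comparisons. By comparison there were 7 for CoCl2 in silenced cells and 5 for Sp1 under CoCl2. There were 3 for CoCl2 in control cells and 2 for Sp1 silencing alone. CCND3, MCM10, RRM2, PRIM2 and E2F6 were among the genes whose probes stayed within 1.5-fold of each other.

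Of a further list of 53 genes of the pathway, 51 had a probe, and they gave 9 lower and 3 higher of 50 with Sp1 silencing alone and 10 lower and 3 higher of 50 under CoCl2, that is, 18% and 20% lower against 13.6% and 17.7% of all genes. With CoCl2, 7 were lower and 2 higher of 51 in control cells and 6 lower and 2 higher of 49 in silenced cells, that is, 13.7% and 12.2% lower against 9.88% and 11.1% of all genes. These lower shares lay near those of all genes, and the higher shares were 6% in both Sp1 comparisons (13.5% and 16.6% of all genes) and 3.92% and 4.08% with CoCl2 (10.6% and 10.2%). CDC7, the kinase that fires origins, and TIPIN, of the fork protection complex, were lower in all 4 comparisons. CDC7 gave 661 in control, 294 in silenced, 275 in CoCl2-treated control and 179 in CoCl2-treated silenced cells, with log2 ratios of -1.11 and -1.02 for Sp1 and of -1.04 and -0.94 for CoCl2. TIPIN gave 2196, 1184, 1045 and 815, with log2 ratios between -0.85 and -0.76.

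Lower in both Sp1 comparisons were further SKP2, the substrate receptor of a ubiquitin ligase that targets a kinase inhibitor (-2.04 and -2.21), TOP2A, topoisomerase II alpha and also a proliferation marker (-2.22 and -1.93), DSCC1, of an alternative clamp loader (-1.49 and -1.39), WDHD1, which couples polymerase alpha to the helicase (-0.98 and -1.22), and TFDP1, the partner of E2F factors (-0.84 and -1.15). SKP2 gave 385 in control, 90.3 in silenced, 272 in CoCl2-treated control and 77.5 in CoCl2-treated silenced cells. Higher in both were RRM2B, the p53-inducible ribonucleotide reductase subunit (1.45 and 1.62), and CHAF1B, a subunit of a histone chaperone (0.92 and 1.08). RRM2B gave 842, 2207, 510 and 2061. With CoCl2, DBF4, the activator of CDC7 (-0.72 and -0.78), and MCM9 (-1.40 and -1.23) were also lower in both kinds of cell. TICRR, which takes part in helicase activation, was higher in both (2.16 and 3.91), with signals of 1048, 650, 4003 and 11422 from a single probe.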

How the data were processed

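RNA of OVSAYO cells was measured on 4 single-colour arrays, 1 per condition. The authors deposited intensities, the scanner output of Agilent Feature Extraction 10.5.1.1 for array design 014850 (annotated on hg18), background-subtracted and not normalized between arrays; flags (other values per the file headers) mark spots well above background, outliers and saturation. Each array held 43376 spots, of which 33081 to 34542 were well above background and 0 saturated. The authors' value table of the same arrays proved to be the same intensities times 1 constant per array (1.25 to 1.58).

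Outlier spots were left out, log2 intensities were reduced by each array's 75th percentile, spots of a probe were averaged, and a probe was well above background if at least 50% of its spots were. Of 41000 probes, 26222 had a symbol through a RefSeq accession (GRCh38.p14 table), giving 17718 genes; members had 77 probes, and for 52 members the brightest probe passed on every array. The spread between spots came from the 10-spot probe itself (6 members) or from 264 such probes in 5 signal bins. The smallest signal well above background on an array stood in for a dim probe in bounds. Each condition had 1 array, so no test was made, and their number limits the precision.

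All 54 members were described. Signals on all arrays are given for the 30 members with the largest ratio of at least 1.5-fold, and genes of the other list are named where they passed 1.5-fold in both Sp1 or both CoCl2 comparisons, except where a result is not reported here. The members and lists were chosen with earlier results of these data known. Settings tried instead were no scaling, scaling by the median or by the percentile of well measured spots, quantile normalization, a normexp correction (offset 50), the authors' table, outlier spots kept, other filters on dim probes, the mean over a gene's probes and a threshold of 2-fold. The counting was tested on simulated data. The work used limma 3.58.1 in R 4.3.3, and Python 3.11.15 with pandas 2.3.3, numpy 2.4.6, matplotlib 3.10.9 and scipy 1.17.1.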

Additional observations from a re-analysis of the deposited data

Results flagged for a closer look

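E2F7 moved in opposite directions with Sp1 silencing in the absence and in the presence of CoCl2. Its log2 ratio of silenced to control cells was -1.07 without and 0.78 with CoCl2, a difference of 1.85. The spot SD of that difference, 0.11, came from other probes of like signal and holds nothing of differences between probes of a gene. Among other members with several probes, 17 of 84 compared ratios were at least 1.5-fold apart. The gap reached 2.08 on the log2 scale for GINS4 in the Sp1 comparison under CoCl2. Each ratio rests on 1 array per condition and on 1 probe, and the difference was not tested.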

How the results depend on the processing

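No paired analysis was possible because each condition had 1 array, and for the same reason no array could be left out. Of 75 ratios of at least 1.5-fold, 57 were still so without scaling, 67 with median scaling and 73 in the authors' table. These settings shift all ratios of a comparison by the same amount, of under 1.5-fold, so none of the 75 could change sign. With quantile normalization 73 were still at least 1.5-fold and with normexp 52, and all 75 kept their sign in both. With the mean over probes 71 were still at least 1.5-fold, and 3 changed sign, all in the Sp1 comparison under CoCl2: GINS4 to 0.032, ORC6 to 0.051 and RFC1 to -0.079. With outlier spots kept and with the percentile over spots well above background, all 75 stayed at least 1.5-fold. The filters on dim probes decide only which ratios are counted and leave their values as they are. They could therefore not bring a ratio under 1.5-fold, and with the filter on all 4 arrays 73 of the 75 were counted.

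Without scaling, the median of all genes moved to -0.22 and 0.23 for CoCl2 in control and silenced cells, to 0.38 for Sp1 under CoCl2 and to 0.47 for the difference of CoCl2 responses, and with median scaling it moved to 0.11 for CoCl2 in silenced cells and for the difference. The medians of the members without scaling were -0.45 and 0.12 for CoCl2 in control and silenced cells, 0.21 for Sp1 under CoCl2 and 0.63 for the difference. For CoCl2 in control cells the member median was -0.30 in the authors' table, -0.35 with the mean over probes, -0.15 with normexp and -0.33 with quantile normalization. For Sp1 under CoCl2 it was -0.065 with the mean over probes and -0.075 with median scaling, and for CoCl2 in silenced cells it was -0.001 with median scaling.

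At 2-fold the counts of lower members were 5 and 2 for CoCl2 in control and silenced cells and 10 and 6 for Sp1 without and with CoCl2, and those of higher members were 0, 3, 0 and 0. Without scaling, 2 members were higher with CoCl2 in control cells, 11 higher and 3 lower in silenced cells, and 15 higher and 6 lower for Sp1 under CoCl2. With normexp 9 were lower with CoCl2 in control cells, and 7 lower and 4 higher in silenced cells. With median scaling 5 were lower with CoCl2 in silenced cells. For Sp1 without CoCl2, 1 member was higher in the authors' table, with median scaling and with quantile normalization, and for Sp1 under CoCl2, 1 was higher with the mean over probes. Apart from the scaling and the threshold, whose construction moves all ratios or the count, the cause was not tested. The dim probes of E2F8, CCND2 and CCNE2 are limited by their signal over background.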
